A study of Mus musculus with 91 samples.

Results

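The 9 genes described here belong to the Kv1 potassium channel complex and were followed across single layer 5 (L5) pyramidal neurons of the mouse primary visual cortex (V1). They were the 6 pore-forming alpha subunits *Kcna1*, *Kcna2*, *Kcna3*, *Kcna4*, *Kcna5* and *Kcna6* and the 3 cytoplasmic beta subunits *Kcnab1*, *Kcnab2* and *Kcnab3*, chosen by name as 9 of the 34745 rows of the expression tables. Each library was the RNA drawn from 1 neuron at the end of a patch-clamp recording (Patch-seq), and the label of each neuron gave its subtype. There were 47 Pyr←LP neurons and 44 Pyr←ORBvl neurons, named for the lateral posterior thalamic nucleus and the ventrolateral orbitofrontal area, the sources of the top-down inputs to which the 2 types were assigned. The mice were adults of both sexes, and the labels gave wild type as the genotype of all 91 neurons, so the types differ in no allele or agent that the labels name. The type was assigned from the recorded hyperpolarization-activated current by a trained classifier and not from the RNA, so it is a predicted type. The labels did not say which neurons shared a mouse, so p-values measure the spread between neurons.

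Kv1 channels are voltage-gated potassium channels that open at voltages near the action potential threshold and pass a low-threshold potassium current. Alpha subunits join as tetramers, often of different members, and most are found on axons, at the initial segment and at terminals, where they restrain firing. Beta subunits bind the cytoplasmic side of the channel, belong to the aldo-keto reductase fold, aid delivery to the axon, and some of them speed inactivation.

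Total counts per neuron ran from 2545 to 1948982 (median 411884) in Pyr←LP neurons and from 2410 to 1699215 (median 445008.5) in Pyr←ORBvl neurons. Tests used the 83 neurons (44 Pyr←LP and 39 Pyr←ORBvl) kept when the exclusion rule stated by the study, on total counts and GABAergic genes, was applied to the deposited counts. No neuron fell under the limit on total counts, and 8 exceeded that on GABAergic genes and were left out. This set is not the set of neurons that the study itself kept. Among the 83, a median of 3214 genes had a count in a Pyr←LP neuron and 3940 in a Pyr←ORBvl neuron. Neuronal markers had counts in all 83 neurons and the excitatory markers *Slc17a7*, *Camk2a* and *Gria2* together also in all 83. The L5 markers *Fezf2* and *Bcl11b* had a count in 21 of 44 Pyr←LP and 31 of 39 Pyr←ORBvl neurons, so 23 Pyr←LP and 8 Pyr←ORBvl neurons had neither. Oligodendrocyte markers had a count in 82 of the 83 neurons, with a median sum of 1234 CPM (counts scaled to a common library total) in Pyr←LP and 2507 CPM in Pyr←ORBvl neurons. Microglial markers had a count in 81, with a median sum of 763 CPM in Pyr←LP and 998 CPM in Pyr←ORBvl neurons. The Pyr←LP neuron C8 had a scaling factor of 0.0919 in the edgeR fit, while those of the other neurons ran from 0.466 to 4.43. Pyr←ORBvl neurons C5 and C11, both left out of the tests, had nearly the same profile (Pearson r 0.993, next pair 0.717), although they differed by more than sampling noise (chi-square 3.36 per degree of freedom over 3505 genes). Each of the 14 sample title prefixes that held both types could be used as a batch, although the labels do not say what the prefix stands for. Titles whose prefix differed only by a hyphen were taken as 1 prefix, which joined titles in prefixes 822, 823 and 826. Prefix 826 held both types only for this reason. Its Pyr←LP neuron C10 has the title without the hyphen and its Pyr←ORBvl neuron C14 the title with it.

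The alpha subunits are encoded by separate genes with uninterrupted coding sequences, of which 1 coding exon is annotated in each. Their counts rested on reads placed at 1 site only, so a stretch that 2 genes share over a whole read could be counted for neither. The windows shown are 30 coding bases around the potassium selectivity filter, the most conserved stretch of the pore, from GENCODE transcripts on GRCm38, read 5′ to 3′ on the coding strand. Capitals mark the 9 bases at which the 6 genes are not all alike, and 21 of the 30 bases were shared by all 6.
Kcna1, chr6:126642222-126642251, minus strand: TcCatgacCacTgtGggAtaCggTgaCatg
Kcna2, chr3:107105215-107105244, plus strand: TcCatgacAacTgtAggCtaTggAgaCatg
Kcna3, chr3:107037602-107037631, plus strand: AcCatgacAacTgtTggTtaTggTgaTatg
Kcna4, chr2:107296486-107296515, plus strand: AcCatgacAacTgtGggCtaTggGgaCatg
Kcna5, chr6:126533739-126533768, minus strand: AcTatgacCacTgtAggCtaCggGgaCatg
Kcna6, chr6:126738641-126738670, minus strand: AcAatgacCacGgtAggTtaTggGgaCatg

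Identity between coding sequences ran from 70.1% (*Kcna4* and *Kcna5*) to 77.3% (*Kcna1* and *Kcna3*) over the 15 alpha pairs, and from 67.8% to 76.7% over the 3 beta pairs. Only 1 pair shared an unbroken run longer than 50 bases, the read length the study's methods give for the alignment. The methods give a greater length for the sequencing itself, and reads of that length would reach beyond the run. *Kcna5* and *Kcna6* were identical over 91 coding bases, which span the arginine-rich S4 segment, the voltage sensor of the channel. A 50-base read has 42 start positions within this run at which it cannot be told to which of the 2 genes it belongs, unless its mate in the read pair lies outside the run. The run lies at chr6:126533950-126534040 in *Kcna5* and at chr6:126738852-126738942 in *Kcna6*, both on the minus strand of GRCm38, and capitals mark its 6 arginine and lysine codons.
Kcna5 and Kcna6, shared run: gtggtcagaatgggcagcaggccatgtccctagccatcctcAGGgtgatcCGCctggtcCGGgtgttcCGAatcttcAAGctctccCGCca

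*Kcna5*, *Kcna1* and *Kcna6* lie in a row on chromosome 6, and *Kcna3* and *Kcna2* lie next to each other on chromosome 3. Of these neighbours, *Kcna2* had a count in 29 of the 83 neurons and *Kcna3* in 5, while *Kcna1* had one in 20 and *Kcna6* in 21. *Kcnab2* on chromosome 4 overlaps *Nphp4*, a ciliary gene that also had counts in these neurons, so its reads are uncertain where strand was not kept. *Kcna2* overlaps *Gm38712* and *Kcna6* overlaps *Gm33581*, for which no counts were given. *Kcnab1* overlaps *A330015K06Rik*, *Gm52605* and *A730090N16Rik*, of which only the last had counts (4 in total).

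Counts of the Kv1 genes were sparse in both types. The median count was 0 in each type for all 9 genes, and no gene had a count in more than 38.6% of the neurons of a type. *Kcna2* and *Kcnab2* were seen most often, each in 29 of 83 neurons (34.9%), followed by *Kcna6* in 21, *Kcna1* and *Kcnab1* in 20 each, and *Kcnab3* in 15. *Kcna3* was seen in 5 neurons, *Kcna4* in 4 and *Kcna5* in 1.

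**Figure D1:**
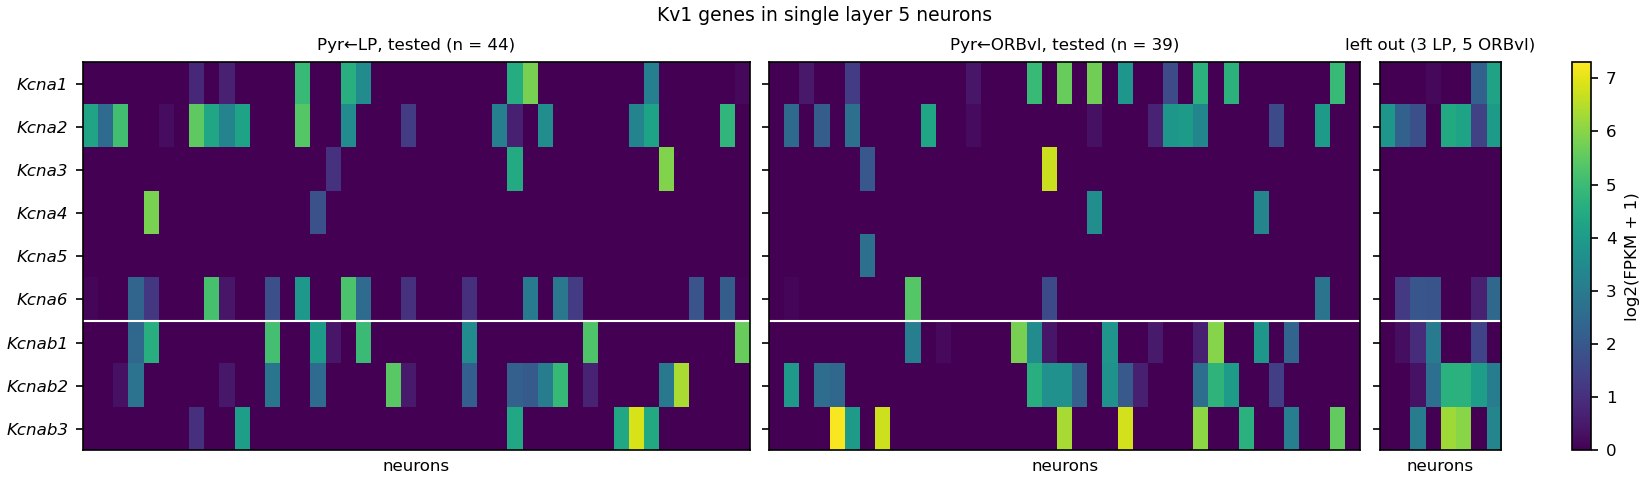
Heat map of log2(FPKM + 1) for the 9 Kv1 genes (rows) in each neuron (columns, in sample order), where FPKM is the count scaled by gene length and library total. The panels hold the 44 Pyr←LP and 39 Pyr←ORBvl neurons tested and the 8 left out, the white line divides alpha from beta subunits, and most cells are at 0.

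Levels per length, in FPKM, were highest on the log2(FPKM + 1) scale for *Kcna2* (mean 1.07 ± 1.74, SD, n = 83) and *Kcnab2* (0.99 ± 1.63). *Kcnab3* (0.91 ± 2.07), *Kcna1* (0.80 ± 1.73), *Kcnab1* (0.80 ± 1.71) and *Kcna6* (0.55 ± 1.26) came next. The lowest means were those of *Kcna3* (0.24 ± 1.10), *Kcna4* (0.18 ± 0.85) and *Kcna5* (0.03 ± 0.30). This order is over both types together, and the types were ordered differently. *Kcna2* was first in Pyr←LP neurons (mean 1.35) and 5th in Pyr←ORBvl neurons (0.76), while *Kcnab3* was 6th in Pyr←LP (0.57) and first in Pyr←ORBvl neurons (1.29). *Kcnab2* was 2nd in each. No pair of neighbours in the order over both types differed beyond the spread between neurons. The smallest adjusted p over the 8 neighbouring pairs was 0.735 (two-sided paired permutation test, sign flips within neurons, 100000 resamples), and the largest step, 0.31 between *Kcna6* and *Kcna3*, had an unadjusted p of 0.0939. The order depends on how neurons are summarised: by mean FPKM *Kcnab3* was first (9.56) and *Kcna2* (4.30) came after *Kcna1* and *Kcnab1* as well, while by the share of neurons with a count *Kcnab3* was sixth.

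*Kcna1* encodes Kv1.1, an axonal subunit whose loss causes seizures in mice. Pyr←LP neurons had a count of *Kcna1* in 9 of 44 cells, with a lowest and median count of 0 and a highest of 426. Pyr←ORBvl neurons had one in 11 of 39 cells, with a lowest and median of 0 and a highest of 374. The groups overlapped through their whole range. Mean FPKM was 3.39 ± 10.3 (SD, n = 44) in Pyr←LP and 5.77 ± 13.3 (SD, n = 39) in Pyr←ORBvl neurons, and the single Pyr←LP neuron C32 held 45.6% of the normalized Pyr←LP counts.

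*Kcna2* encodes Kv1.2, the usual partner of Kv1.1 in axons. It had a count in 17 of 44 Pyr←LP neurons (lowest and median 0, highest 299) and in 12 of 39 Pyr←ORBvl neurons (lowest and median 0, highest 264). Among neurons with a count, the median level was 11.01 FPKM in Pyr←LP and 5.12 FPKM in Pyr←ORBvl neurons, and the ranges overlapped. Mean FPKM was 6.13 ± 11.3 (SD, n = 44) against 2.24 ± 4.90 (SD, n = 39). *Kcna2* was also the alpha subunit most evenly spread over neurons, as the highest neuron held 18.4% of the normalized counts of Pyr←LP and 20.6% of those of Pyr←ORBvl neurons.

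*Kcna6* encodes Kv1.6, a further delayed rectifier of the family, and it was the alpha subunit with the most unequal shares. It had a count in 17 of 44 Pyr←LP neurons (38.6%, Wilson 95% interval 25.7% to 53.4%) and in 4 of 39 Pyr←ORBvl neurons (10.3%, 4.06% to 23.6%). The Pyr←LP counts had a lowest and median of 0 and a highest of 424, held by C19, followed by 360 in C10. The 4 Pyr←ORBvl neurons were C42 with 91 counts, C22 with 9, C13 with 8 and C2 with 1. C13 had 11566 counts in total, so its 8 counts made 692 CPM, the highest CPM of *Kcna6* in any tested neuron, and 73.5% of the normalized Pyr←ORBvl counts. The groups overlapped in range, since 27 Pyr←LP neurons were also at 0.

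*Kcna3*, *Kcna4* and *Kcna5* were close to the limit of what these libraries show. *Kcna3*, which encodes Kv1.3, a channel best known from T cells and microglia, had counts of 34, 8 and 1 in 3 Pyr←LP neurons and of 49 and 6 in 2 Pyr←ORBvl neurons. The summed microglial markers had a median of 1792 CPM in those 5 neurons and 860 CPM in the other 78, and their part in the *Kcna3* counts was not tested. *Kcna4*, which encodes Kv1.4, the rapidly inactivating A-type member, had counts of 80 and 2 in 2 Pyr←LP neurons and of 25 and 4 in 2 Pyr←ORBvl neurons. *Kcna5*, which encodes Kv1.5, known from heart and vascular muscle, had 17 counts in Pyr←ORBvl neuron C9 and none elsewhere. It was seen in 0 of 44 Pyr←LP neurons, which allows up to 6.82% of such neurons to hold a count, taking 3 counts as the limit behind a count of 0. This limit covers counting error and neurons with a count, not neurons that express the gene. C9 was also one of the 5 neurons with *Kcna3*, and it had no count of *Kcna6*, the gene with the shared run.

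*Kcnab1* encodes the subunit Kvβ1, which confers rapid inactivation on Kv1 channels. Its counts ran from 0 (median 0) to 592 in Pyr←LP neurons, of which 9 of 44 had a count, and from 0 (median 0) to 1051 in Pyr←ORBvl neurons, of which 11 of 39 had one. Pyr←LP neurons with a count had a median of 73 counts, whereas those of Pyr←ORBvl had a median of 4. The ranges overlapped, and 2 Pyr←ORBvl neurons, C20 and C35, had 1051 and 845 counts.

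*Kcnab2* encodes Kvβ2, which aids axonal targeting of Kv1.2. It had a count in 15 of 44 Pyr←LP neurons (lowest and median 0, highest 137) and in 14 of 39 Pyr←ORBvl neurons (lowest and median 0, highest 373). Both types overlapped, with a mean of 4.45 ± 14.2 FPKM (SD, n = 44) and 3.56 ± 6.68 FPKM (SD, n = 39). The Pyr←LP neuron C43, with 8 counts of *Kcnab2* in a total of 8269, reached 81.6 FPKM and held 26.7% of the normalized Pyr←LP counts. Among neurons with a count, the median level was lower in Pyr←LP (4.91 FPKM) than in Pyr←ORBvl neurons (8.56 FPKM).

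*Kcnab3* encodes Kvβ3, a further beta subunit of the family. It had a count in 6 of 44 Pyr←LP neurons (lowest and median 0, highest 163) and in 9 of 39 Pyr←ORBvl neurons (lowest and median 0, highest 378). Of the 6 Pyr←LP neurons, 3 had at least 5 counts, and of the 9 Pyr←ORBvl neurons 8 did. Mean FPKM was 4.36 ± 18.04 (SD, n = 44) in Pyr←LP and 15.4 ± 36.1 (SD, n = 39) in Pyr←ORBvl neurons, the widest gap in mean FPKM of the 9 genes. The Pyr←LP neuron C40 held 61.9% of the normalized Pyr←LP counts.

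Whether the types differed in Kv1 transcripts was tested with edgeR's quasi-likelihood test over all 7542 genes that had at least 5 counts in at least 10 of the 83 neurons. None of the Kv1 genes was called. A call needed an adjusted p below 0.05 together with a change of more than 2-fold, which 171 of the 7542 genes (2.27%) reached, 104 of them higher in Pyr←LP neurons and 67 in Pyr←ORBvl neurons. Without Pyr←LP neuron C8 the rule called 66 of 7537 genes, 25 higher in Pyr←LP and 41 in Pyr←ORBvl neurons. On simulated counts as variable as these, edgeR also called genes that had not been changed, which limits each edgeR call given here, those of *Kcna6* and *Cntnap2* included. *Kcna3*, *Kcna4* and *Kcna5* failed the filter, so 6 of the 9 were tested, and 1 of the 6 (*Kcnab3*) had an unadjusted p under 0.05, as did 767 of the 7542 genes. DESeq2 also called none. *Kcnab3* had a log2 fold change (Pyr←ORBvl over Pyr←LP) of 2.10 (SE 0.97, adjusted p 0.394) and *Kcna1* of 1.07 (SE 0.95, adjusted p 0.889). *Kcna6* had -1.62 (SE 0.98, adjusted p 0.658) and *Kcna2* -1.24 (SE 0.92, adjusted p 0.798). *Kcna2* was lower in Pyr←ORBvl neurons in all 19 alternatives, from -3.79 (DESeq2 with the title prefix as a block, adjusted p 0.0766) to -0.59 (limma), and was called in none. *Kcna1* moved to 2.58 (adjusted p 0.228) without prefix 913, which holds Pyr←LP neuron C32, to 1.94 (adjusted p 0.479) without C32 alone and to 0.51 (adjusted p 0.999) without prefix 831. *Kcna1* turned direction in 7 of 19 alternatives, with -0.029 for the title prefix as a block and -0.52 with the number of detected genes as a covariate. *Kcnab2* was at 0.34 (SE 0.91) and *Kcnab1* at -0.05 (SE 0.95), with adjusted p of 0.981 and 0.997. *Kcnab2* turned direction in 10 of 19 alternatives (from -1.60 for sums per type and prefix to 1.10 in neurons with at least 100000 counts), and *Kcnab1* reached -2.56 in DESeq2 (SE 1.48, adjusted p 0.984). The standard errors were near 1 on the log2 scale for all 6, so a difference of 2-fold was not resolved for any of them at this depth and number of neurons. Fewer transcripts in a neuron and fewer molecules captured from it cannot be told apart.

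**Figure D2:**
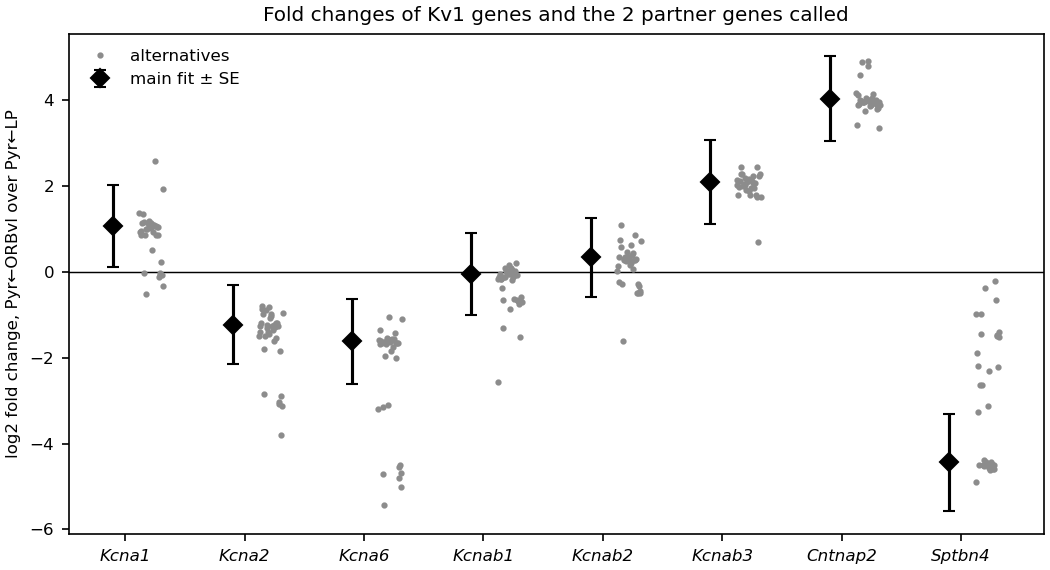
Log2 fold changes (Pyr←ORBvl over Pyr←LP, vertical axis) of the 6 tested Kv1 genes and of the 2 partner genes called, with black diamonds for the edgeR fit ± SE over 83 neurons and grey points for the other count-based fits. The grey points, which leave out limma and include the fits without 1 prefix or neuron, are below 0 throughout for *Kcna6* (lowest -5.43) and reach from -4.89 to -0.22 for *Sptbn4*.

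*Kcna6* was the only member whose call depended on the batch term. With the title prefix as a block, edgeR called 143 of the 7542 genes (1.9%), and among them *Kcna6* with a log2 fold change of -4.70 (SE 1.13, adjusted p 0.00903), higher in Pyr←LP neurons. Mean normalized *Kcna6* was higher in Pyr←LP neurons within 11 of 14 title prefixes, higher in Pyr←ORBvl neurons within 2 and without a count in 1. In prefixes 727, 830, 914, 915 and 919 the Pyr←LP neurons with *Kcna6* had only 1 to 3 counts each, beside none in Pyr←ORBvl neurons. Prefix 826, joined across the hyphen, held 1 neuron of each type. The call held within prefixes with total counts in place of TMM (adjusted p 0.00646), with DESeq2 size factors (0.00871), and without Pyr←LP neurons C8, C10 or C19 (adjusted p 0.00950, 0.01001 and 0.0186). It did not hold in limma on log2(FPKM + 1) within prefixes (-0.77, SE 0.31, adjusted p 0.403), and DESeq2 gave no p within prefixes (-3.89, SE 1.73). Without the block, leaving out the prefix that holds Pyr←ORBvl neuron C13 moved the log2 fold change to -3.11 (SE 1.024, adjusted p 0.0982). Counts summed per type and prefix gave -5.43 (SE 1.99, adjusted p 0.827). *Kcna6* was known as a candidate from earlier results of these data, so this call is not independent evidence.

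**Figure D3:**
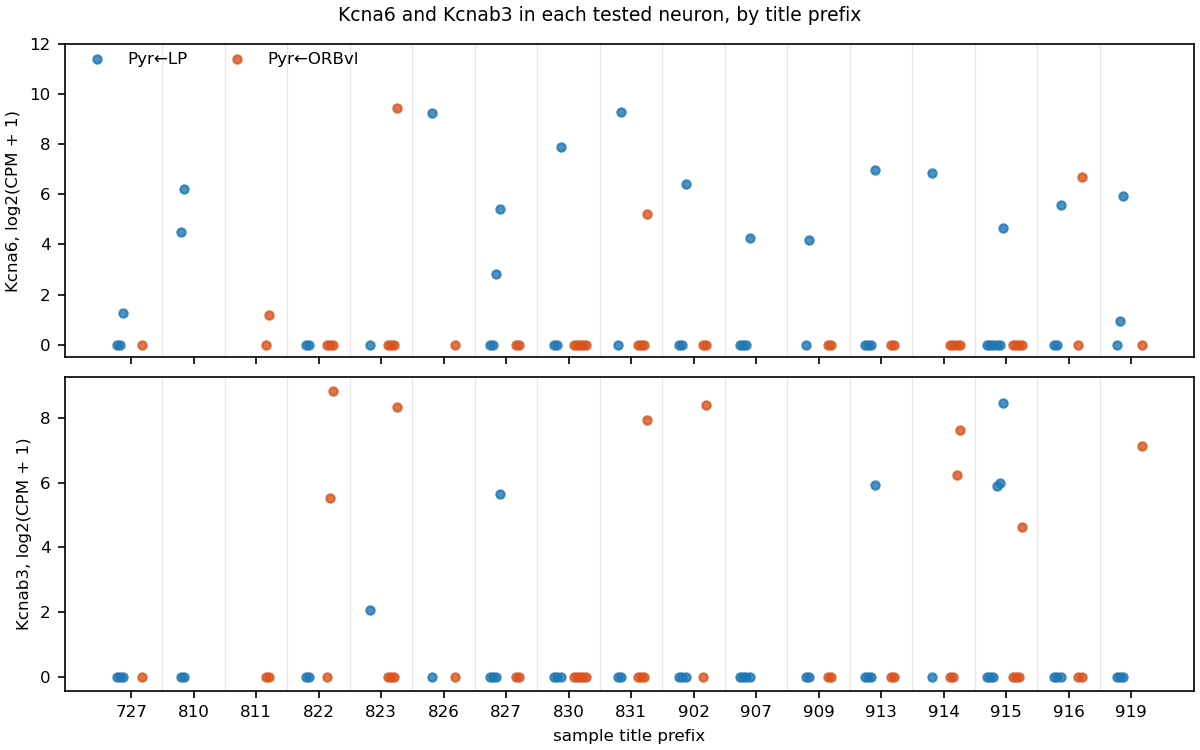
Each point is 1 of the 83 tested neurons, placed by its sample title prefix (horizontal axis) and its log2(CPM + 1) of *Kcna6* (above) or *Kcnab3* (below), blue for Pyr←LP and orange for Pyr←ORBvl. Counts of *Kcna6* were found in 17 Pyr←LP neurons of 14 prefixes and in 4 Pyr←ORBvl neurons of 4 prefixes.

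The share of neurons with a count was compared by Fisher's exact test (two-sided) over the 8941 genes with a count in at least 10 neurons. None of the 6 Kv1 genes tested was called, against 14 of the 8941 genes (0.157%) at an adjusted p under 0.05. The share of *Kcna6* was 28.4 points lower in Pyr←ORBvl neurons (unadjusted p 0.00472, adjusted p 0.306 by Fisher's exact test). Of the 17 Pyr←LP neurons, 6 had 1 to 3 counts, and at 5 or more counts the share was 11 of 44 against 3 of 39, -17.3 points (unadjusted p 0.0432, adjusted p 0.606 by Fisher's exact test). An unadjusted p under 0.05 was found for *Kcna6* alone among the 6, and for 8.15% of all genes. The median gene had a share 4.31 points higher in Pyr←ORBvl neurons, so *Kcna6* lay on the other side of zero from most genes. The other 5 differed by -7.87 (*Kcna2*) to 9.44 (*Kcnab3*) points, with adjusted p of 0.913 or more. After 65 neurons of at least 100000 counts were thinned to 100000 counts each (18 shallower neurons left out, 9 of each type), *Kcna6* was seen in 11 of 35 Pyr←LP and 2 of 30 Pyr←ORBvl neurons (adjusted p 0.494 by Fisher's exact test). *Kcnab1* turned direction when thinned, with 8 of 35 against 5 of 30 neurons.

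**Figure D4:**
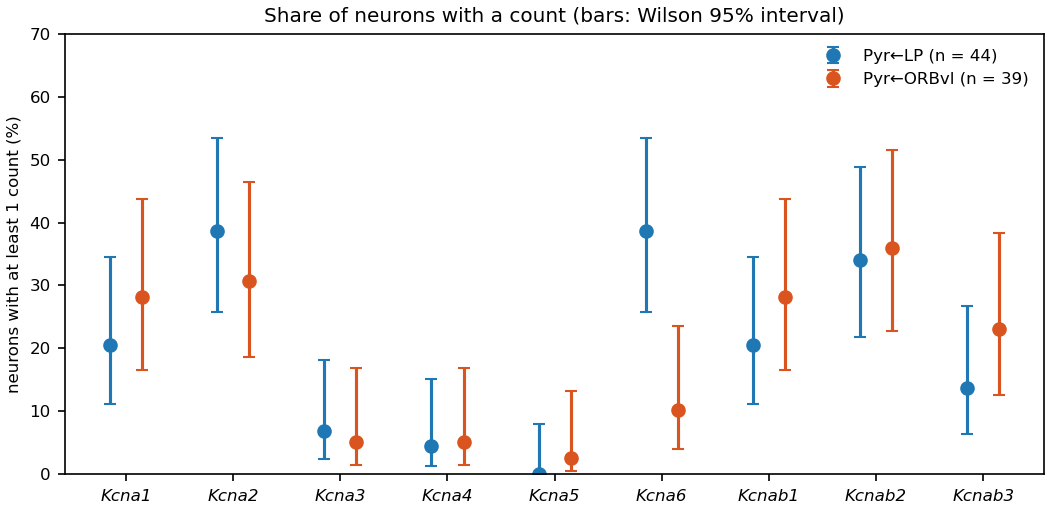
Share of the 44 Pyr←LP (blue) and 39 Pyr←ORBvl (orange) tested neurons with at least 1 count of each Kv1 gene, in percent, with bars for the Wilson 95% interval of counting error. The widest gap is that of *Kcna6*, with 38.6% of Pyr←LP and 10.3% of Pyr←ORBvl neurons.

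Kv1 subunits were then described by the combinations that single neurons showed. A count of at least 1 alpha subunit was found in 52 of 83 neurons (30 Pyr←LP, 22 Pyr←ORBvl), and of at least 1 beta subunit in 48 (24 of each type). Both kinds were present in 34 neurons. An alpha subunit without a beta subunit was seen in 10 Pyr←LP and 8 Pyr←ORBvl neurons, and a beta subunit without an alpha subunit in 4 of 44 Pyr←LP (9.09%, Wilson 95% interval 3.59% to 21.2%) and 10 of 39 Pyr←ORBvl neurons (25.6%, 14.6% to 41.1%). None of the 9 genes had a count in 17 neurons, 10 Pyr←LP and 7 Pyr←ORBvl, and the most in a single neuron was 5 genes. The number of genes seen followed the number of all detected genes (Spearman rho 0.511 over 83 neurons, which share their libraries) and not the total count (rho -0.011).

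*Kcna1* and *Kcna2*, the common axonal pair, had counts together in 11 neurons, 55.0% of those with *Kcna1* and 37.9% of those with *Kcna2*. *Kcna1* and *Kcnab3* met in 8 of the 15 neurons with *Kcnab3* and had the highest correlation of any pair of the 9 (Pearson r 0.335 of log2(CPM + 1) over 83 neurons). *Kcnab1* and *Kcnab2* met in 10 neurons, and *Kcna6* met *Kcnab2* in 9 and *Kcnab1* in 8. *Kcna6* and *Kcnab3* were never seen together among the 83 neurons, although 21 had the first and 15 the second. *Kcna2* and *Kcnab1* met in 2 of the 83 neurons, with 29 and 20 holding each, and had the lowest correlation (r -0.313). Among all 91 neurons these pairs met in 2 and 5 neurons. Given how sparse the counts were, a gene without a count in a neuron may be unseen there, and these pairings are descriptions.

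**Figure D5:**
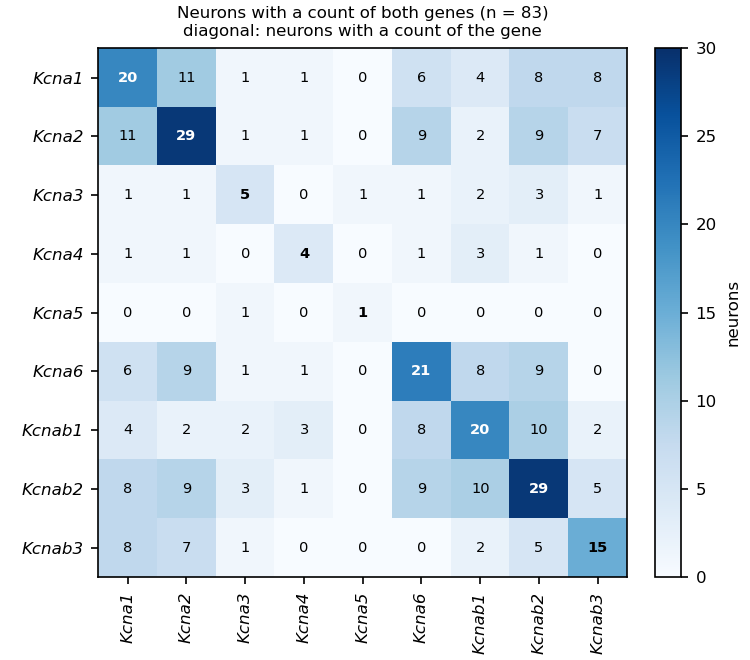
Number of the 83 tested neurons with a count of both genes of a pair, with the number for each gene alone on the diagonal; darker blue marks more neurons. *Kcna1* with *Kcna2* met in 11 neurons and *Kcna6* with *Kcnab3* in 0.

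A list of 14 further genes held the Kv1 alpha subunits *Kcna7* and *Kcna10* and genes whose proteins bind, anchor or assemble with Kv1 channels. Of the 14, 10 passed the filter and 2 were called by edgeR, beside 2.27% of all genes, and 1 of the 2 calls was lost without Pyr←LP neuron C8. With the title prefix as a block edgeR called 0 of the 10, beside 1.9% of all genes. Of the 10, 4 had higher and 6 had lower fitted levels in Pyr←ORBvl neurons, with a median log2 fold change of -0.27 beside 0.07 over all 7542 genes. *Cntnap2*, which encodes Caspr2, the adhesion protein that clusters Kv1 channels beside nodes of Ranvier, rose in Pyr←ORBvl neurons with a log2 fold change of 4.03 (SE 0.98, adjusted p 0.00882). It had a count in 9 of 44 Pyr←LP neurons (lowest and median 0, highest 38 counts) and in 21 of 39 Pyr←ORBvl neurons (lowest 0, median 2, highest 628). These shares were not called by Fisher's exact test (unadjusted p 0.00266, adjusted p 0.243), nor were those of thinned neurons (adjusted p 0.0501). At 5 or more counts the shares were 3 of 44 and 19 of 39 and were called (adjusted p 0.0116 by Fisher's exact test). DESeq2 gave 4.17 (SE 0.97, adjusted p 0.00529) and limma on log2(FPKM + 1) 1.24 (SE 0.31, adjusted p 0.0267). Within title prefixes the change was as large but not called (3.97, SE 1.44, adjusted p 0.145), and the mean was higher in Pyr←ORBvl neurons in 10 of 14 prefixes.

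*Sptbn4*, which encodes beta-IV spectrin of the axon initial segment, was called lower in Pyr←ORBvl neurons (log2 fold change -4.44, SE 1.14, adjusted p 0.0176). The call rested on the single Pyr←LP neuron C8, which held 95.01% of the normalized Pyr←LP counts. Without C8 the change was -0.22 (SE 0.93, adjusted p 0.996). With C8 included, 14 neurons of each type had a count. *Ank3* (-1.75, SE 0.77, adjusted p 0.329), which encodes ankyrin-G, and *Lgi1* (-1.54, SE 0.83, adjusted p 0.566), a secreted epilepsy gene product of the Kv1 complex, did not pass. C8 also held 50.5% of the normalized *Ank3* counts of the Pyr←LP neurons, and without C8 the change of *Ank3* was -0.79 (SE 0.79, adjusted p 0.986). These and *Dlg2* were named after their values were seen. The share of neurons with *Dlg2*, which encodes the scaffold PSD-93, was 34.1% in Pyr←LP and 64.1% in Pyr←ORBvl neurons, with an unadjusted p of 0.00843 and an adjusted p of 0.382 by Fisher's exact test. The fitted log2 fold change of *Dlg2* was -0.20 (SE 0.86, adjusted p 0.989), and 1.69 (SE 1.48, adjusted p 0.791) with the title prefix as a block. Of the remaining Kv1 alpha subunits, *Kcna7* had no count in any neuron and *Kcna10* had 3 counts in 1 Pyr←LP neuron.

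Genes whose log2(CPM + 1) followed each tested Kv1 gene most closely over the 83 neurons were listed as a description. The highest correlations were *D17Wsu92e* with *Kcnab2* (Pearson r 0.564), *Ufl1* with *Kcna1* (0.515), *9430020K01Rik* with *Kcnab3* (0.510) and *Epha7* with *Kcna2* (0.509). *5730455P16Rik* with *Kcna6* (0.470) and *Mrpl23* with *Kcnab1* (0.460) were the closest for the other 2. The next genes were *Mrpl19* and *Josd2* for *Kcna1*, *Fbxo3* and *4833439L19Rik* for *Kcna2*, *Tpst2* and *Slc44a1* for *Kcna6*, *P2rx4* and *Ttc7b* for *Kcnab1*, *Phyh* and *S100a1* for *Kcnab2*, and *Pnkd* and *Cacna1h* for *Kcnab3*. *Kcnab3* and *Cacna1h*, the gene of a T-type calcium channel, had an r of 0.481 and were both present in 7 neurons. These are the highest correlations over the 7542 genes tested, in sparse counts, and the points share depth.

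The 8 neurons left out by the GABAergic rule, which include the near-identical pair C5 and C11, held a median of 3.5 of the 9 genes, and the tested neurons held a median of 2. At least 3 of the genes were held by 7 of the 8 and by 23 of the 83. The left-out neurons had 3081 to 11013 detected genes and the tested ones 1015 to 7152, and this comparison was not tested. *Kcna2* was present in 7 of the 8. Among the tested neurons, at least 1 GABAergic marker was present in 12 of the 20 with *Kcna1* and 24 of the 63 without it, and in 9 of the 15 with *Kcnab3* and 27 of the 68 without it. For *Kcna6* it was present in 9 of 21 and 27 of 62, and the part of such transcripts in these counts was not tested. With all neurons in the fit (the near-identical pair averaged, 90 in all) *Kcna1* had a log2 fold change of 1.14 (SE 0.92), *Kcna6* -1.60 (SE 0.93) and *Kcnab3* 2.12 (SE 0.94), and no Kv1 gene was called. The pair C5 and C11 both carried *Kcna2* (362 and 337 counts), *Kcnab2* (286 and 310) and *Kcnab3* (231 and 208) and none of the other 6 genes.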

How the data were processed

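Each library was made from the RNA of 1 patched neuron with a Smart-seq2-based kit without molecular identifiers or strand. The authors aligned paired reads, given as 50 bases for the alignment and longer for the sequencing, to GRCm38/mm10 with STAR 2.5.3, removed duplicates and counted unique reads on RefSeq genes. The deposited tables hold counts per gene and FPKM per gene. All nonzero FPKM values came within 1% of count over length and total. There were 0 columns of other samples.

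Neurons with under 500 counts, or a sum of log2(count + 1) over Slc32a1, Gad1 and Gad2 above 7, were left out. This is the rule the study states, applied to the deposited counts, and it does not give the study's own set of neurons. Genes that reached 5 counts in 10 or more neurons were tested with edgeR 4.0.16 (R 4.3.3; TMM, quasi-likelihood, robust, Benjamini-Hochberg), and called where the adjusted p was below 0.05 and the change exceeded 2-fold. Positive log2 fold changes are higher in Pyr←ORBvl neurons. DESeq2 1.42.0 and limma 3.58.1 were alternatives. Detection (at least 1 count) was compared by Fisher's exact test with scipy 1.17.1. Wilson intervals cover counting error only. All 9 genes were named whatever their values, with partner genes called or at the ends of the list and the 3 closest genes of each. The genes and lists were chosen with earlier results of these data known.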

Additional observations from a re-analysis of the deposited data

How the results depend on the processing

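With 171 genes called by edgeR, the number was 43 in DESeq2, 84 with total counts in place of TMM, 1 with edgeR's own filter, 4950 of 18100 with no gene filter, 106 with all neurons, 43 in neurons with at least 100000 counts, 3 for sums per type and prefix, 49 and 55 in limma on log2(FPKM + 1) and log2(FPKM + 0.1), and 42 to 188 without 1 prefix or Pyr←LP C8. Chosen after seeing the data, DESeq2 with the title prefix as a block called 466 (a count that moved by a few genes with the linear algebra settings, since some genes did not converge) and limma with that block 16. Of the Kv1 genes, 1 of 9 was called with no filter (*Kcna5*, whose 17 counts were all in Pyr←ORBvl C9), a smaller share than over all genes in that fit, and 1 (*Kcna6*) with the title prefix as a block, also without C8, C10 or C19, with DESeq2 size factors and with total counts. Of the partner genes 1 was called in DESeq2, with total counts, all neurons, at least 100000 counts, detected genes as a covariate, both limma fits and DESeq2 with the block, 0 with edgeR's own filter, sums and every other block fit, and 1 to 2 in leave-outs. Genes differing in detection numbered 14, 31 at 5 counts, and 2 to 17 in leave-outs.

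Directions turned as follows. *Kcna1* was at -0.029 with the block, -0.52 with the covariate, and -0.13, -0.028 and -0.070 with the block and without C8, C10 and C19, -0.067 with DESeq2 size factors and -0.34 with total counts. *Kcnab1* was at 0.078 in limma on log2(FPKM + 0.1), 0.014 in limma with the block and -0.88 to 0.21 in leave-outs. *Kcnab2* was at -0.24 with total counts, -1.60 for sums, -0.28 with the block, -0.49, -0.29 and -0.50 without C8, C10 and C19, -0.34 in DESeq2, -0.45 with its size factors, -0.49 with total counts and -0.16 in limma, all with the block. *Sptbn4* was at 0.13 in limma on log2(FPKM + 0.1). Detection differences turned for *Kcna3* (0.583 points at 5 counts, 0.477 with the TPM rule, -4.12 to 0.527 in leave-outs), *Kcna4* (-2.38 thinned, -2.41 to 3.44), *Kcnab1* (-5.36 at 5 counts, -6.19 thinned) and *Kcnab2* (-4.29 to 7.84). The cause was not tested. *Kcna6* was higher in Pyr←LP neurons in all 18 alternatives that gave a test and in all 19 leave-outs (-3.11 to -1.06). Neuron numbers only name neurons and pair none, so the comparison within title prefixes is the one blocked fit. Sparse counts limit every gene here.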
